A study of Mus musculus with 4 samples.

Results

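The genes described are the ligands and receptors of the tumour necrosis factor (TNF) superfamily. They were taken by name from the platform annotation: every symbol that starts with Tnfsf or Tnfrsf, with Tnf, Lta, Ltb, Ltbr, Fas, Fasl, Cd40, Cd40lg, Cd27, Cd70, Ngfr, Eda and Edar added. Probe sets with 1 symbol covered 40 such genes of 18193 on the array, through 69 of 45037 probe sets. They were 14 ligands, 25 receptors and Tnfsf13os, an RNA named for the opposite strand of a ligand gene and not a ligand itself.

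TNF superfamily ligands are mostly membrane proteins that act as trimers, and some are cut free to act at a distance. Their receptors pass the signal on through TRAF adaptors, which leads to NF-kappaB, and those with a death domain can also recruit FADD and caspases and kill the cell. A few receptors lack a working cytoplasmic part and act as decoys. In the liver, Kupffer cells, the resident macrophages, are known as a source of TNF, and Fas ligand and TRAIL are known for killing tumour cells.

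The study put Kupffer cells of mice with and without Dectin-2, a receptor for fungal sugars encoded by Clec4n, together with SL4, a mouse colon carcinoma line. The 4 groups were Clec4n-/- (knockout) Kupffer cells in co-culture with SL4 cells, knockout Kupffer cells and SL4 cells kept separately, wild-type Kupffer cells in co-culture with SL4 cells, and wild-type Kupffer cells and SL4 cells kept separately. All Kupffer cells came from 12-week-old female C57BL/6 mice and were sorted as CD45+ CD11b+ F4/80+ cells, the SL4 cells carried no deletion in any group, and each culture held 100000 cells of each kind for 8 hours. The RNA of separate cultures was mixed before labelling, so both cell types contribute to every array, and fewer cells of a type and less RNA per cell cannot be told apart. Each group had 1 array, whose values are probe set signals in arbitrary units. A difference between 2 arrays therefore has no replicate check, and precision is limited by having 4 arrays.

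Between 10117 and 10187 genes per array read above the floor of 76.1, the median signal of all probe sets, which stands in for background here. Clec4n read 8.19 and 8.29 in the knockout co-culture and separate arrays, against 17.6 and 14.2 in the wild-type co-culture and separate arrays, all under the floor, and where this probe set lies relative to the deletion was not checked. The markers of the sort, Ptprc, Itgam and Adgre1, and the Kupffer cell genes Clec4f and Timd4 were also under the floor in all 4 arrays. The summed signal of 20 macrophage and leukocyte markers was 2283 in knockout co-culture and 2382 in knockout separate culture, and 2380 in wild-type co-culture and 1991 in wild-type separate culture. Of these markers 8 were above the floor in each co-culture array and 9 in each separate array. Cd53, at 615 to 793, and Laptm5, at 350 to 502, were the brightest in every array, so the sum rests largely on them. T, NK and B cell, neutrophil and endothelial markers had 0 members above the floor in any array. Of 6 hepatocyte markers, 4 were above it in knockout co-culture and 5 in each other array. Of 10 epithelial and colon markers, 1 was above it in knockout co-culture and 2 in each other array, and Cdh1, Krt8 and Cdx2 were under it in all 4 arrays. Of 9 mesenchymal markers, 7 were above it in knockout co-culture and 6 in each other array. Vim read 12614 to 16128, Sparc 7090 to 8387 and Col3a1 2191 to 3206, while Col1a1 and Col1a2 were under the floor in all 4 arrays.

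The receptors that the results turn on are Tnfrsf10b, Tnfrsf21 and Tnfrsf23, which passed the test for a culture effect, and Tnfrsf9, which was singled out after its values were seen because it read above the floor in co-culture only. Their promoters are shown as far as the RefSeq table of assembly GRCm38.p6 holds them, searched for motifs of NF-kappaB and AP-1, factors that TNF receptors are known to activate. Each is the 250 bases before the transcription start on the gene's own strand. Capitals mark matches to the kappaB consensus and to the AP-1 motif TGANTCA, searched on both strands. The Tnfrsf9 windows lie on the plus strand at chr4:150919905-150920154 and chr4:150927749-150927998, for the 2 starts of the gene. The Tnfrsf23 window lies on the minus strand at chr7:143685876-143686125 and the Tnfrsf21 window on the plus strand at chr17:43016305-43016554.
Tnfrsf9 start 1: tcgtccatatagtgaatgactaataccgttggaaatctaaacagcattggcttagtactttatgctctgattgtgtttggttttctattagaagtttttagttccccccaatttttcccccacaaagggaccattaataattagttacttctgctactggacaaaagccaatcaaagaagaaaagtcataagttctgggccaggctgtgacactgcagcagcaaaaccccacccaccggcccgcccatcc
Tnfrsf9 start 2: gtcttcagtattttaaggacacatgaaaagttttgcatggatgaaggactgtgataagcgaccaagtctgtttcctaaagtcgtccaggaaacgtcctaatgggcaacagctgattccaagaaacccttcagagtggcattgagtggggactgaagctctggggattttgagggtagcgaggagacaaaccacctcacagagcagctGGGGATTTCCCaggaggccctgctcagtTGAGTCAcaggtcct
Tnfrsf23: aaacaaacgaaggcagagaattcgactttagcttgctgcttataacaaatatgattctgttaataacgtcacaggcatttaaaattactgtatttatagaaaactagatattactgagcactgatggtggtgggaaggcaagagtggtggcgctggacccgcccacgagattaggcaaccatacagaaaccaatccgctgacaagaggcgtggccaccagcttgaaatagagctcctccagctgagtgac
Tnfrsf21: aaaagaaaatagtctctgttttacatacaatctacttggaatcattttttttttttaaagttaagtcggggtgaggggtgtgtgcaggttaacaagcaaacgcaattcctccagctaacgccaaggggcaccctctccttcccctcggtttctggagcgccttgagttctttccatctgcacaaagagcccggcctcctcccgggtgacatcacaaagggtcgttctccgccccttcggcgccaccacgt

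The second Tnfrsf9 promoter holds GGGGATTTCC, which starts at -43, and GGGATTTCCC at -42, which overlaps it, so the kappaB matches are 1 stretch. An AP-1 match, TGAGTCA, follows at -15. The first Tnfrsf9 promoter and those of Tnfrsf23 and Tnfrsf21 held neither motif in this window. Over all 32851 promoters of the table, 3.9% held the kappaB consensus and 6.75% the AP-1 motif. Of the 40 genes, 31 were in the table with 35 promoters, of which 3 held a kappaB match, in Tnfrsf9, Ltb, a lymphotoxin chain, and Tnfrsf8, a receptor of activated lymphocytes. An AP-1 match was held by 5, in Tnfrsf9, Tnfrsf8, Fas, Tnfsf13b and Tnfsf14. A match describes the letters and does not show a binding site.

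All 14 ligand genes read under the floor in all 4 arrays, in each of their 25 probe sets, and the highest ligand signal in any array was 61.1. Tnf itself, the founding cytokine of the family, read 13.7 in knockout co-culture and 28.8 in knockout separate culture, and 25.1 in wild-type co-culture and 28.4 in wild-type separate culture. That highest value belonged to Tnfsf9, the ligand of Tnfrsf9, with 43.3 in knockout co-culture and 61.1 in knockout separate culture, and 52.6 in wild-type co-culture and 34.9 in wild-type separate culture. Both genes stayed under the floor that stands in for background, and no fold is given for any ligand. The other ligands were Lta, Ltb, Cd40lg, Cd70, Eda, Fasl, Tnfsf4, Tnfsf8, Tnfsf10, Tnfsf11, Tnfsf13b and Tnfsf14. Tnfsf12 and Tnfsf13 were not among the 14, because the annotation gives their probe sets to several genes at once.

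Among the dim ligand probe sets, those of Tnfsf10, which encodes TRAIL, and Fasl, which encodes Fas ligand, are given because these proteins can kill tumour cells. They were picked after their values were seen. One Tnfsf10 probe set read 45.7 in knockout co-culture and 2.92 in knockout separate culture, and 31.5 in wild-type co-culture and 2.44 in wild-type separate culture. Another read 19.9 in knockout co-culture and 6.02 in knockout separate culture, and 23.4 in wild-type co-culture and 5.27 in wild-type separate culture. In both the co-culture arrays were the brighter ones, but in the brightest Tnfsf10 probe set the 4 values overlapped, with 12.5 and 4.5 in knockout co-culture and separate culture and 24.8 and 25.0 in wild type. One Fasl probe set likewise read 14.6 in knockout co-culture and 1.88 in knockout separate culture, and 12.7 in wild-type co-culture and 1.61 in wild-type separate culture, while its brighter one overlapped. Over all 25 ligand probe sets, 4 had both co-culture arrays above both separate arrays and 5 had both below. Among all 14245 probe sets under the floor these shares were 20.0% and 14.8%, so the ligand counts lie near the background.

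**Figure D1:**
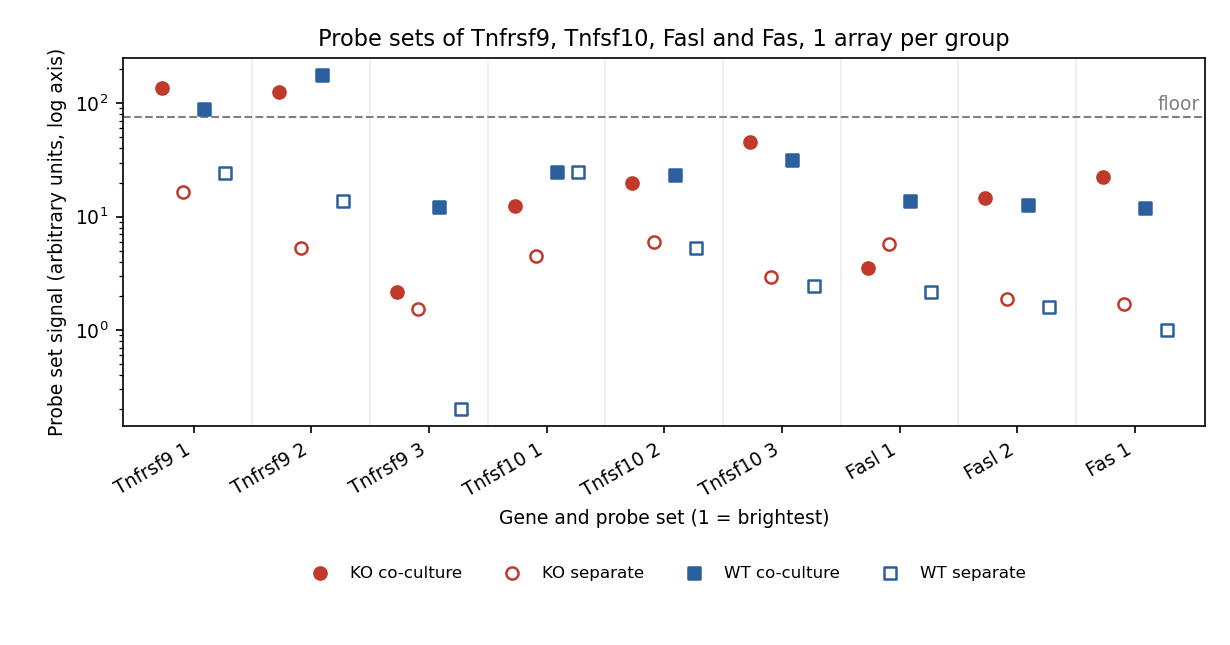
Signal on a log axis of every probe set of Tnfrsf9, Tnfsf10, Fasl and Fas in the knockout (red circles) and wild-type (blue squares) arrays, filled for co-culture and open for separate culture, 1 array per group; the dashed line is the floor of 76.1. Only 2 Tnfrsf9 probe sets rise above the floor, in both co-culture arrays, and every Tnfsf10, Fasl and Fas signal lies under it.

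Of the 25 receptor genes, 12 read above the floor in at least 1 array and 10 of these did so in all 4. Together with the ligands and Tnfsf13os, 28 members stayed under it, at 0.558 to 61.1. The 13 receptors among them were Cd27, Edar, Fas, Ngfr, Tnfrsf4, Tnfrsf8, Tnfrsf11a, Tnfrsf11b, Tnfrsf13b, Tnfrsf14, Tnfrsf17, Tnfrsf19 and Tnfrsf25. Fas, the death receptor of Fas ligand, read 22.2 in knockout co-culture and 1.69 in knockout separate culture, and 12.0 in wild-type co-culture and 1.01 in wild-type separate culture. Its co-culture arrays were the brighter ones, with all signals under the floor. Over the 28 members under the floor in all 4 arrays, 3 had both co-culture arrays above both separate arrays and 6 had both below, against 19.9% and 14.2% of all genes under the floor. Signals of different probe sets depend on their own probes, so receptors are compared across arrays and not with each other.

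Culture was tested in 1 additive limma fit, with culture and genotype as its terms, over 10287 genes above the floor in at least 2 arrays, in which the genotypes serve as the repeats. The fit leaves 1 residual degree of freedom, the difference between the genotypes' changes. limma draws that spread toward a variance trend over all genes fitted, which supplies most of the 16.8 total degrees of freedom. The p-values therefore set a change mostly against this shared spread, and not against replicates of a group. Of the 40 genes 11 could be fitted, all receptors. The test called 3 higher in co-culture (3.0% of all genes fitted) and 0 lower (4.84%), all 3 with small changes. Without the variance trend, or with probe sets of a gene replaced by their median, 0 members passed. Before adjustment 6 of the 11 had p under 0.05, as had 21.3% of all genes.

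Tnfrsf10b, the mouse death receptor for TRAIL, was 1 of the 3. It read 879 in knockout co-culture and 682 in knockout separate culture, and 1078 in wild-type co-culture and 686 in wild-type separate culture. Both co-culture arrays were above both separate arrays, by 1.29-fold in knockout and 1.57-fold in wild type. Over both genotypes Tnfrsf10b rose by 0.51 on the log2 scale (SE 0.11, limma adjusted p = 0.0067, higher in 2 of 2 genotypes). Its second probe set showed the same direction, with 402 in knockout co-culture against 274 in knockout separate culture, and 405 in wild-type co-culture against 345 in wild-type separate culture, although it did not pass on its own (limma adjusted p = 0.21).

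Tnfrsf21, death receptor 6, another receptor with a death domain, read 1265 in knockout co-culture and 975 in knockout separate culture, and 1054 in wild-type co-culture and 868 in wild-type separate culture. The ratios were 1.30-fold in knockout and 1.21-fold in wild type, and the estimate over both was 0.33 (SE 0.09, limma adjusted p = 0.032, higher in 2 of 2 genotypes). Its dimmer probe set did not bear this out in wild type: it read 537 in knockout co-culture and 421 in knockout separate culture, but 450 in wild-type co-culture and 484 in wild-type separate culture (limma estimate 0.12, adjusted p = 0.73).

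Tnfrsf1a, the main TNF receptor, which also has a death domain, differed by about as much in each genotype but missed the threshold. It read 1326 in knockout co-culture and 1122 in knockout separate culture, and 1297 in wild-type co-culture and 1075 in wild-type separate culture, an estimate of 0.26 (SE 0.08, limma adjusted p = 0.069). The co-culture arrays were again above the separate arrays in both genotypes.

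The third call was Tnfrsf23, a decoy receptor for TRAIL without a death domain, known in mouse. It read 181 in knockout co-culture and 127 in knockout separate culture, and 214 in wild-type co-culture and 105 in wild-type separate culture. The ratio was 1.42-fold in knockout and 2.03-fold in wild type, with an estimate of 0.77 over both (SE 0.21, limma adjusted p = 0.035, higher in 2 of 2 genotypes). It has 1 probe set of its own, near the floor, and with quantile normalization its limma adjusted p was 0.077. Tnfrsf23 passed in 5 of 12 alternative ways of processing. A brighter probe set shared with Tnfrsf22 was lower in co-culture, with ratios of 0.769 in knockout and 0.748 in wild type, so the direction for Tnfrsf23 is uncertain.

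Tnfrsf22, the neighbouring gene for a similar decoy, gave different answers in its 3 probe sets. The brightest read 1695 in knockout co-culture and 1668 in knockout separate culture, and 1810 in wild-type co-culture and 1606 in wild-type separate culture, an estimate of 0.10 (SE 0.07, limma adjusted p = 0.50). The dimmest read 152 in knockout co-culture and 85.2 in knockout separate culture, and 134 in wild-type co-culture and 83.2 in wild-type separate culture, and fitted as a row of its own it passed at 0.76 (limma adjusted p = 0.031). The third overlapped between cultures. Because the decoy genes are near copies of each other, probes of one may also catch RNA of the other, and their separate levels are uncertain.

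**Figure D2:**
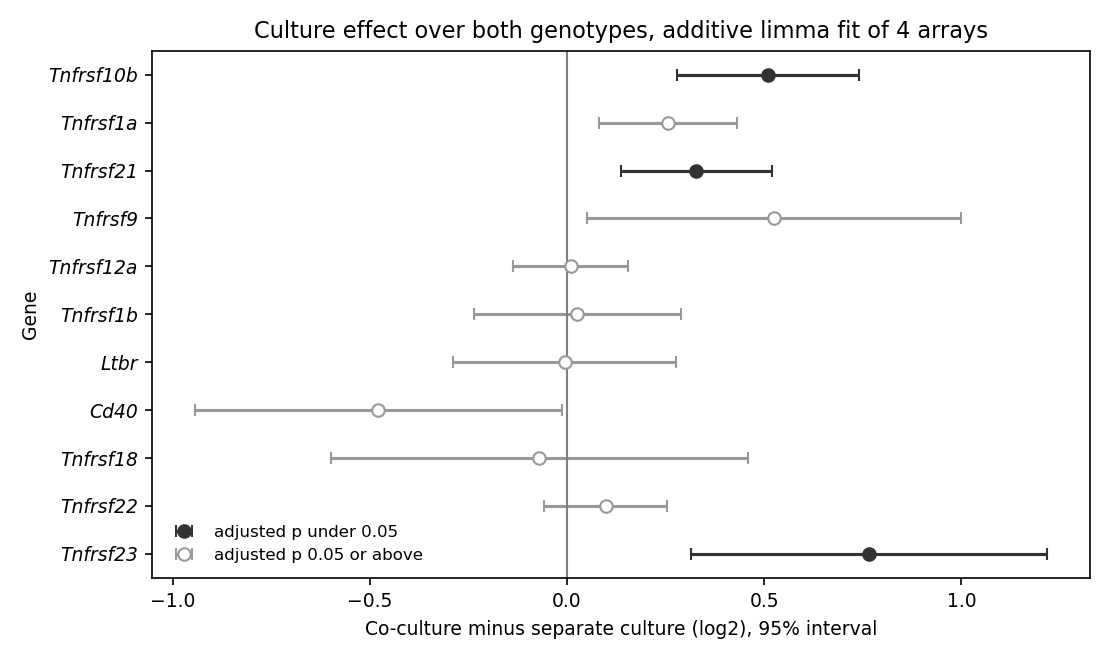
Co-culture minus separate culture on the log2 scale for the 11 receptor genes fitted, as points with 95% intervals from the additive limma fit of 4 arrays; filled points had an adjusted p under 0.05. Tnfrsf10b, Tnfrsf21 and Tnfrsf23 lie to the right of 0 with filled points, and Tnfrsf12a, Tnfrsf1b and Ltbr lie at 0.

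Tnfrsf9, the costimulatory receptor 4-1BB of activated lymphocytes, was the only member above the floor in both co-culture arrays and in neither separate array. The probe set with the highest mean on the log2 scale, which stands for the gene, read 135 in knockout co-culture and 16.4 in knockout separate culture, and 88.7 in wild-type co-culture and 24.5 in wild-type separate culture. Against the floor the ratio was at least 1.78-fold in knockout and at least 1.17-fold in wild type, and the fit did not call it (0.52, SE 0.22, limma adjusted p = 0.18). A second probe set read 127 in knockout co-culture and 5.33 in knockout separate culture, and 179 in wild-type co-culture and 13.9 in wild-type separate culture, at least 1.67-fold and at least 2.35-fold. Fitted as a row of its own that probe set gave an estimate of 0.98 (SE 0.22, limma adjusted p = 0.0053). Both probe sets entered the fit only through their co-culture arrays, and their separate arrays were raised to the same floor. Because Tnfrsf9 was also picked for that pattern, neither p-value is support for a culture effect. The third probe set stayed under the floor. The T, NK and B cell markers on the array, 10 in all, summed to 102 in knockout co-culture and 129 in knockout separate culture, and to 131 in wild-type co-culture and 82.5 in wild-type separate culture, with 0 above the floor.

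The remaining receptors did not pass the test. Tnfrsf12a, the receptor for the cytokine TWEAK and a gene of growing and wounded tissue, read 3891 in knockout co-culture and 3729 in knockout separate culture, and 3921 in wild-type co-culture and 4035 in wild-type separate culture. Its culture estimate was 0.01, with a 95% interval of -0.14 to 0.16, and its second probe set gave 0.02. Its 4 signals overlapped between the cultures.

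Tnfrsf1b, the second TNF receptor, found mainly on leukocytes, read 689 in knockout co-culture and 624 in knockout separate culture, and 593 in wild-type co-culture and 631 in wild-type separate culture. Ltbr, the lymphotoxin receptor that drives alternative NF-kappaB signalling, read 563 in knockout co-culture and 549 in knockout separate culture, and 524 in wild-type co-culture and 543 in wild-type separate culture. The estimates were 0.03 for Tnfrsf1b, with an interval of -0.24 to 0.29, and -0.01 for Ltbr, with an interval of -0.29 to 0.28. In both genes the cultures overlapped.

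Cd40, a receptor of antigen-presenting cells, was the member with the lowest estimate, -0.48 (SE 0.22, limma adjusted p = 0.22). It read 86.1 in knockout co-culture and 146 in knockout separate culture, and 124 in wild-type co-culture and 141 in wild-type separate culture. A second Cd40 probe set straddled the floor and split by genotype instead, with 82.9 in knockout co-culture and 84.0 in knockout separate culture, and 32.8 in wild-type co-culture and 26.5 in wild-type separate culture.

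Tnfrsf18, the receptor GITR of regulatory T cells, had opposite differences in the genotypes. It read 80.3 in knockout co-culture and 123 in knockout separate culture, and 110 in wild-type co-culture and 78.8 in wild-type separate culture. Tnfrsf13c, the receptor for the B cell survival factor BAFF, was above the floor in 1 array only, at 93.3 in knockout co-culture, with 57.4 in knockout separate culture, 68.2 in wild-type co-culture and 55.3 in wild-type separate culture. The signals of both genes stayed between 55.3 and 123.

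**Figure D3:**
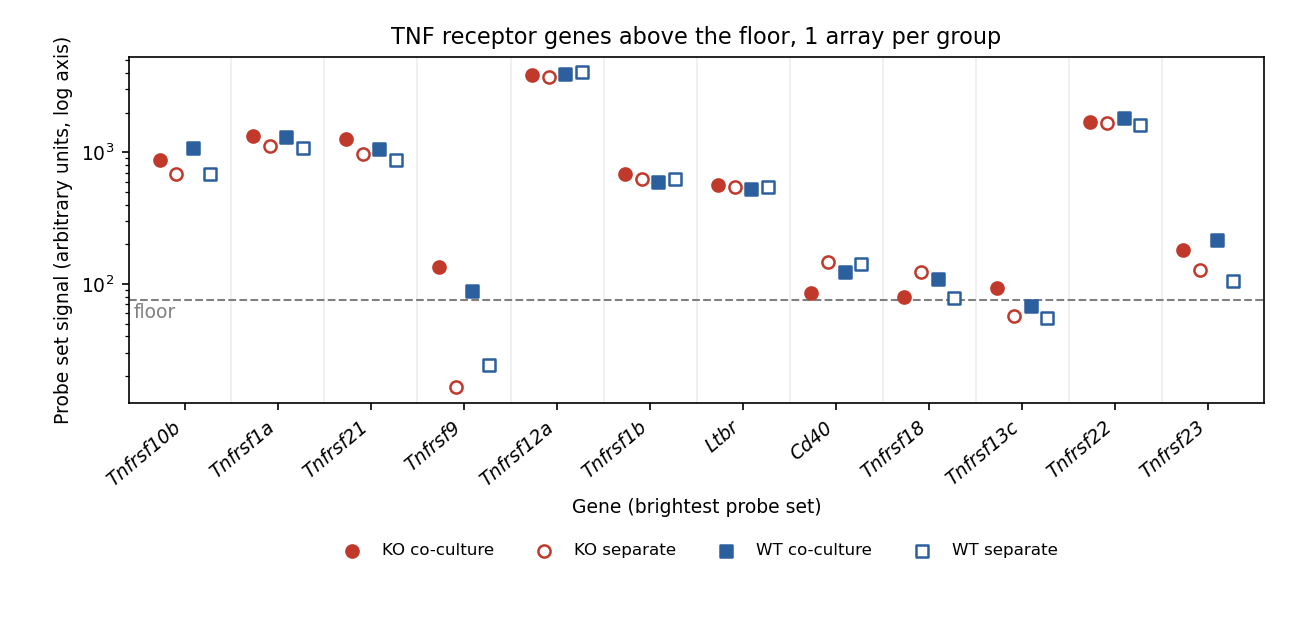
Signal on a log axis of the brightest probe set of the 12 receptor genes above the floor in at least 1 array, for knockout (red circles) and wild type (blue squares), filled for co-culture and open for separate culture, 1 array per group. Tnfrsf9 crosses the floor of 76.1 between separate culture and co-culture in both genotypes, while the 4 values of Tnfrsf12a, Tnfrsf1b and Ltbr lie close together.

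Array by array, few members were far apart between cultures. With wild-type cells, 1 of the 11 members above the floor exceeded 2-fold upward in co-culture (0.701% of all genes) and 0 exceeded it downward (0.538%). That gene was Tnfrsf23. With knockout cells, 0 of 12 exceeded 2-fold upward (0.67%) and 0 downward (0.574%). For the 10 members above the floor in all 4 arrays the median log2 ratio was 0.10 in knockout and 0.22 in wild type, beside -0.02 and -0.02 for all such genes. Of these 10, 2 exceeded 1.25-fold upward in co-culture in both genotypes (3.03% of such genes) and 0 downward (5.37%). They were Tnfrsf10b and Tnfrsf23, while the similar decoy Tnfrsf22 reached 1.02-fold in knockout and 1.13-fold in wild type in its brightest probe set. Of the same 10 members, 5 had both co-culture arrays above both separate arrays (19.8% of such genes) and 1 had both below (26.6%), and over all 40 members these counts were 10 (20.1%) and 7 (21.3%). The 9 macrophage and leukocyte markers above the floor had a median log2 ratio of 0.07 in knockout and 0.26 in wild type, and the mesenchymal markers one of -0.38 in knockout and -0.48 in wild type. The 5 hepatocyte markers above the floor had one of -0.30 in knockout and -0.30 in wild type. Their part in these differences was not tested.

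**Figure D4:**
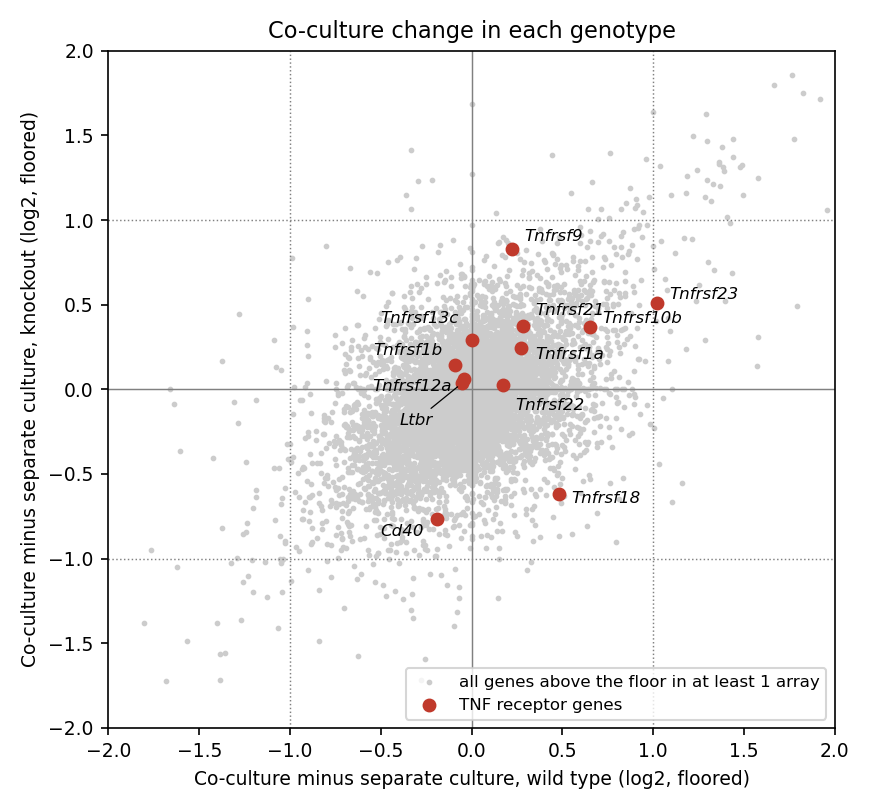
Log2 ratio of co-culture over separate culture in wild type (horizontal) and knockout (vertical), after raising signals to the floor, for all genes above the floor in at least 1 array (grey, 10623 shown and 14 outside the axes) and for 12 TNF receptor genes (red); dotted lines mark 2-fold. Tnfrsf23 alone of the receptors passes a 2-fold line, in wild type. Tnfrsf18 lies in a quadrant of opposite signs, as do Tnfrsf1b, Tnfrsf12a and Ltbr with smaller changes.

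The comparison of genotypes asked whether Dectin-2 on the Kupffer cells matters for these genes. In co-culture 0 of 12 members exceeded 2-fold upward in knockout (0.144%) and 0 downward (0.0962%). In separate culture the counts were 0 of 10 in each direction, against 0.0869% higher and 0.116% lower of all genes. The largest difference in co-culture was that of Tnfrsf9, 1.52-fold higher in knockout in the probe set that stands for the gene but 1.41-fold lower in the second, so the probe sets gave opposite directions. Next was Cd40, at 1.44-fold lower in knockout, but its second probe set was at least 1.09-fold higher in knockout co-culture, so the direction depends on the probe set here too. Tnfrsf18 was 1.37-fold lower in knockout co-culture and 1.57-fold higher in knockout separate culture.

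In the additive limma fit, 0 of the 11 members passed for genotype over both cultures, while 0.068% of all genes passed as higher and 0.117% as lower in knockout. Before adjustment 1 of the 11 had p under 0.05, against 9.99% of all genes. It was Tnfrsf21, at 0.22 higher in knockout (SE 0.09, limma adjusted p = 0.43), with 1265 and 975 in knockout co-culture and separate culture against 1054 and 868 in wild type. Tnfrsf12a had a genotype estimate of -0.06, with an interval of -0.21 to 0.08, and Tnfrsf1a one of 0.05, with an interval of -0.13 to 0.22. Over all 40 members, 5 had both knockout arrays above both wild-type arrays (17.6% of all genes) and 8 had both below (14.6%). Among the 10 above the floor in all 4 arrays the counts were 1 (15.6%) and 1 (15.8%), and among the 28 under it 4 (20.4%) and 7 (13.2%). For Tnfrsf9, whose interval ran from -0.17 to 0.78, the fit leaves a wide range.

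Whether the genotypes responded differently to co-culture could only be described, since that difference is the fit's residual. Of 12 members 1 had co-culture changes that differed at least 2-fold between the genotypes (1.05% of all genes), Tnfrsf18, where knockout minus wild type was -1.10 on the log2 scale. For Tnfrsf10b this difference was -0.29, for Tnfrsf23 -0.51, for Tnfrsf21 0.09 and for Tnfrsf1a -0.03.

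The lists of downstream signalling genes, sheddases and related receptors outside the naming rule held 55 genes on the array. Of these, 49 were above the floor in at least 1 array. In both genotypes 7 exceeded 2-fold upward in co-culture (0.404% of all genes) and 0 downward (0.216%). Because the lists were chosen with earlier results of these data known, setting these counts beside the shares of all genes is not a test. Of these 7 genes 5 belong to the NF-kappaB subunits and inhibitors, namely Nfkb2, Relb, Nfkbia, Nfkbiz and Bcl3, and the others are Traf1, an adaptor of TNF receptors, and Tnfaip3, the deubiquitinase A20 that shuts the pathway off. Traf1 read 332 in knockout co-culture and 95.5 in knockout separate culture, and 271 in wild-type co-culture and 85.5 in wild-type separate culture. Of the receptor adaptors and kinases above the floor, 1 of 17 in knockout (0.67% of all genes) and 1 of 16 in wild type (0.701%) were at least 2-fold higher. That gene was Traf1 in both. The death arm list held Casp8, the caspase that death receptors recruit, with Fadd, Cflar, Bid, Bak1, Ripk3, Mlkl, Faf1 and Daxx. Of the 8 that read above the floor, 0 differed by 2-fold or more in either genotype. The shares of all genes were 0.67% higher and 0.574% lower in knockout, and 0.701% higher and 0.538% lower in wild type. For 8 genes, a count of 0 lies near those shares. The medians of the list were -0.07 in knockout and -0.04 in wild type, beside -0.02 and -0.02 for all genes. The NF-kappaB subunits and inhibitors had a median log2 ratio of 1.32 in knockout and 1.04 in wild type, beside 0.19 and 0.22 for the TNF receptors above the floor.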

How the data were processed

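RNA of mixed Kupffer and SL4 cells was measured on 4 1-colour arrays. The authors deposited linear intensities per probe set, made with Affymetrix Expression Console 1.4 and MAS5, per the submitters' processing notes. MAS5 scales each array: means trimmed by 2% at each end were 497 to 498. The platform annotation gave 34945 probe sets 1 symbol and 932 several, and 9160 are unnamed here. All 40 member symbols matched RefSeq (GRCm38.p6) through Entrez numbers. Each gene was represented by its brightest probe set (mean log2 over 4 arrays). Signals were raised to the floor of 76.1 and log2-transformed, and against a dimmer array at the floor a ratio is written "at least". The fit used limma 3.58.1 in R 4.3.3 with a variance trend (16.8 total degrees of freedom) and Benjamini-Hochberg adjustment over 10287 genes. It was run on simulated arrays that followed the same additive model with independent noise, so they cannot check the calls in these data. Genes at least 2-fold apart or with adjusted p under 0.05 were counted. Members above the floor in at least 1 array are given with all values, the rest by name, count and range, and genes of other lists where they were at least 2-fold apart in both genotypes or mark a cell type. The sequences and the dim members given with values were picked after their values were seen. Alternatives covered floor, scaling, probe sets, filters and trend. Members, lists and alternatives were chosen with earlier results of these data known.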

Additional observations from a re-analysis of the deposited data

Results flagged for a closer look

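Tnfrsf18 stood out because its co-culture difference ran in opposite directions in the genotypes, each by at least 1.25-fold, with a difference of -1.10 (knockout minus wild type, log2). The difference was not tested, since it has no replicate, and its 4 signals lay between 78.8 and 123.

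Outside the comparisons, 3 probe sets that the annotation gives to several genes at once read above the floor in all 4 arrays. The one shared by Tnfrsf22 and Tnfrsf23 read 450 in knockout co-culture and 586 in knockout separate culture, and 266 in wild-type co-culture and 356 in wild-type separate culture. It was 1.69-fold higher in knockout co-culture and 1.65-fold higher in knockout separate culture than in wild type, and its co-culture over separate ratios of 0.769 in knockout and 0.748 in wild type ran against those of the Tnfrsf23 probe set. The one shared by Tnfsfm13 and Tnfsf12, the gene for TWEAK, read 166 in knockout co-culture and 180 in knockout separate culture, and 128 in wild-type co-culture and 173 in wild-type separate culture. The one that also names Tnfsf13 reached 118 in knockout separate culture and lay between 106 and 118 in all 4 arrays. These are the only ligand-named signals above the floor, and none can be given to 1 gene.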

How the results depend on the processing

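Of the recomputed counts 49 stayed within 1.5 times the reported one and 20 did not. Most that stayed were counts of 0 that remained 0, including every genotype count, where such a ratio says little. The 20 that moved were all culture counts or counts of differences between the genotypes' changes. The culture estimate of every called member kept its direction in each alternative. The wild-type count of members at least 2-fold apart between cultures, 1 as reported, was 2 without a floor, with the floor at 0.5 of the median and with the brightest probe set chosen after flooring (chosen after seeing the data). It was 0 with the floor at 2 times the median, with the floor value added to every signal, with quantile normalization and among genes whose brighter array was at least 4 times the floor. The knockout count, 0 as reported, was 1 without a floor, with the floor at 0.5 of the median and with the floor value added. The count of differences between the genotypes' changes, 1 as reported, was 2 without a floor and 0 with the floor at 2 times the median, with the floor value added and with the brightness filter. The culture count of the limma fit, 3 members as reported, was 5 with the floor value added and with every probe set fitted (chosen after seeing the data), 1 with quantile normalization, and 0 with the median over probe sets, with all genes fitted and without the variance trend. Over all genes that fit called 807, against 370 with the median over probe sets, 56 without the trend, 0 with all genes and 1444 of all probe sets. Tnfrsf10b passed in 9 of 12 alternatives (adjusted p 0.00072 to 0.58), Tnfrsf21 in 8 of 12 (0.014 to 0.52), Tnfrsf23 in 5 of 12 (0.014 to 0.63), Tnfrsf9 in 4 of 10 (4.2e-05 to 0.79) and Tnfrsf1a in 3 of 12 (0.042 to 0.48). The passes of Tnfrsf9 are no support, since it was singled out for reading above the floor in co-culture only. Where a call was lost the cause was not tested. The labels give no replicate numbers to pair arrays by, and the limma fit already compares the cultures within each genotype. Signals near background limit every statement on ligands.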

Other observations

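Some dim receptors separated the genotypes rather than the cultures. Tnfrsf14, the receptor of LIGHT and BTLA, read 22.6 in knockout co-culture and 25.9 in knockout separate culture, against 4.95 in wild-type co-culture and 5.60 in wild-type separate culture. Tnfrsf13b, a BAFF receptor of B cells, ran the other way, with 0.648 and 0.558 in knockout co-culture and separate culture against 10.9 and 7.19 in wild type. All of these values lie under the floor. Over the 40 members, 5 had both knockout arrays above both wild-type arrays and 8 had both below, beside 17.6% and 14.6% of all genes.

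Tnfrsf11b, which encodes osteoprotegerin, a soluble decoy for the ligand of RANK, read 37.3 in knockout co-culture and 27.5 in knockout separate culture, and 39.6 in wild-type co-culture and 26.6 in wild-type separate culture. Tnfsf13os read 40.7 in knockout co-culture and 50.6 in knockout separate culture, and 39.3 in wild-type co-culture and 61.0 in wild-type separate culture. Tnfrsf11b was brighter and Tnfsf13os dimmer in both co-culture arrays, with all signals under the floor. Of all genes under the floor, 19.9% were likewise brighter and 14.2% dimmer. A dimmer Tnfrsf11b probe set overlapped between the cultures. It read 5.05 in knockout co-culture and 1.93 in knockout separate culture, and 0.267 in wild-type co-culture and 0.429 in wild-type separate culture.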
